A study of Mus musculus with 6 samples.

Results

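The genes described here are 41 lymphocyte identity genes measured in sorted mouse blood neutrophils: 15 genes of B cells, 18 of T cells, and 8 of NK and cytotoxic cells. They were taken by gene symbol from the 29097 rows of the deposited expression table, and their antigen receptor chains, coreceptors, lineage transcription factors and cytotoxic effectors are given with the value in every library. The samples were 3 Ctrl and 3 LIP libraries of peripheral blood (PB) neutrophils, made with Smart-seq2, which copies full-length cDNA from very small amounts of RNA. All mice were wild-type male C57BL/6 animals, 8 weeks old. In ligature-induced periodontitis (LIP, called Lig in the sample labels), silk was tied around the second molars of both jaws for 14 d, which lets bacteria collect at the gum and inflames it. The Ctrl mice carried no ligature over the same time. Cells were gated as CD45+, CD11b+ and Ly6G+ after red cell lysis, and each library was a pool of 5 mice, so that a replicate stands for a pool and not for an animal.

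B cells recognise antigen through a surface immunoglobulin that signals through the paired chains *Cd79a* and *Cd79b*, and their fate is held by *Pax5* and *Ebf1*. T cells use a T cell receptor that signals through the CD3 chains and *Cd247*, with the coreceptors *Cd4* or *Cd8a* and *Cd8b1* and the kinases *Lck* and *Zap70*. NK cells and cytotoxic T cells kill through granules of perforin and granzymes, and the factors *Eomes* and *Tbx21* guide that program. Neutrophils are myeloid cells and do not need these antigen receptors. CD11b, one of the antigens of the sort, is carried by monocytes and many NK cells as well as neutrophils, whereas Ly6G is the antigen particular to neutrophils in mouse blood.

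Promoter sequence is shown for 4 members, to place beside each other a B cell scaffold gene (*Bank1*), a T cell receptor chain gene (*Cd3d*), a T cell kinase gene that differed less between the groups (*Zap70*) and a cytotoxic effector gene that did not pass the test (*Prf1*). Each is the 250 bases upstream of the RefSeq transcription start on GRCm38.p6, read along the gene's own strand, and capitals mark the motif matches named after the sequences.
Bank1, chr3:136326067-136326316, minus strand: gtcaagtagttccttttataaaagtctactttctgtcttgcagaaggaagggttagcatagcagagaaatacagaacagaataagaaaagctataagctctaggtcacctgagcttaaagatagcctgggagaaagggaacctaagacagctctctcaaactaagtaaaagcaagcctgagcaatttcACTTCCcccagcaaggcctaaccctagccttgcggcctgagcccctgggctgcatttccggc
Cd3d, chr9:44981536-44981785, plus strand: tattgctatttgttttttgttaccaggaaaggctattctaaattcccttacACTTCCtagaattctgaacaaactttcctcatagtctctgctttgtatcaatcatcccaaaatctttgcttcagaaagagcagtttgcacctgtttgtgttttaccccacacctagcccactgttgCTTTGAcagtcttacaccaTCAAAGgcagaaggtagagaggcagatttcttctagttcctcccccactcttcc
Zap70, chr1:36761548-36761797, plus strand: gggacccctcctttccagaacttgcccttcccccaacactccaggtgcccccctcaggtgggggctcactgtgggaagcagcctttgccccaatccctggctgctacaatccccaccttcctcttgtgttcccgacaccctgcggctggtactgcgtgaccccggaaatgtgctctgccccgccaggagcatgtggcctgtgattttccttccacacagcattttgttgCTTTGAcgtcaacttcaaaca
Prf1, chr10:61297586-61297835, plus strand: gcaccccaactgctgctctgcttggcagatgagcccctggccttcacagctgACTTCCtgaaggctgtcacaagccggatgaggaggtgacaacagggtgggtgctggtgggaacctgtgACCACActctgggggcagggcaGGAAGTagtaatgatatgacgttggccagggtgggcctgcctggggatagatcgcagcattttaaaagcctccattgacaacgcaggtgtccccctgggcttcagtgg
The *Bank1* window held 1 Ets core (GGAAGT on either strand, here read on the other strand), at position -62 from the start. In *Cd3d* there was an Ets core at -199 and TCF/LEF cores (CTTTGA on either strand) at -73 and -54, and in *Zap70* a TCF/LEF core at -21. The *Prf1* window held Ets cores at -198 and -108 and a RUNX core (TGTGGT on either strand) at -130.

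RefSeq windows were matched for 32 of the 41 members, 12 of B cells, 13 of T cells and 7 of NK and cytotoxic cells, and were compared with one window for each of 14830 genes. The Ets core lay in 22.2% of all windows, in 6 of the 12 B cell windows, in 6 of the 13 T cell windows and in 2 of the 7 NK windows. The RUNX core lay in 12.3% of all windows and in 5 of 7 NK windows (*Nkg7*, *Prf1*, *Gzma*, *Gzmb* and *Ncr1*), in 2 of 12 B cell windows and in 0 of 13 T cell windows. The TCF/LEF core lay in 11.9% of all windows, in those of *Cd3d*, *Bcl11b* and *Zap70* among T cell genes, in that of *Fcmr* among B cell genes and in no NK window. Longer motifs were rarer. The octamer ATGCAAAT, found in 1.34% of all windows, was present in *Vpreb3* and *Blnk*, the EBF1 site, TCCC and GGGA with any 2 bases between them (0.856%), in *Cd22*, the T-box site TCACACCT (0.978%) in *Nkg7*, and the GATA core AGATAA (7.31%) in *Cd3g*, each searched on both strands. A match describes only letters in a short window and is no evidence of a bound site.

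The libraries held 52186555 to 57262379 counted reads. TMM factors, which scale each library to the bulk of its genes, were 1.10 to 1.13 in Ctrl and 0.889 to 0.905 in LIP, and CPM below means counts per 1000000 reads after this scaling. All 20 listed neutrophil genes were higher in LIP, with a summed level of 15706 to 17885 CPM in Ctrl and 58175 to 62773 CPM in LIP. *S100a8*, a neutrophil alarmin, had 6059, 7749.9 and 7152 FPKM in Ctrl and 21237, 23540.5 and 20600.1 FPKM in LIP. RNA of this gene was thus present in every library, which does not give the share of neutrophils among the cells. Reads of other blood cells moved as well: 11 of 11 erythroid genes were lower in LIP (14.8 to 15.2% of all reads in Ctrl against 1.57 to 1.63% in LIP), 13 of 15 monocyte and macrophage genes were higher (1614 to 1917 against 2985 to 3181 CPM) and 10 of 10 platelet genes were higher (1209 to 1466 against 3105 to 3673 CPM). Scaled on the neutrophil genes instead, 12 of 15 monocyte and 10 of 10 platelet genes were lower, as were 9194 of the 10440 genes tested. With TMM factors, 27.2% of the genes tested were lower and 26.5% higher. No gene of these 4 lists that is in the table was at 0 in all libraries. The part of these differences in the values of the lymphocyte genes was not tested.

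B cell and T cell genes were lower in LIP and most NK and cytotoxic genes did not pass the test. With edgeR's quasi-likelihood test and Benjamini-Hochberg adjustment over 10440 genes, 15 of 15 B cell genes and 18 of 18 T cell genes fell at an adjusted p under 0.05, where 27.2% of all genes tested fell (53.6% passed in either direction). In all 33 of these genes the 3 LIP libraries lay below the 3 Ctrl libraries, which held for 33.1% of the genes tested (63.4% did not overlap in either direction). Of the 8 NK and cytotoxic genes 0 fell, 1 rose (*Ncr1*) and 7 did not pass, where 26.5% of all genes rose. At an unadjusted p under 0.05, 0 of these 8 were lower by edgeR and 0 by DESeq2, and limma on log2(FPKM + 1) gave 2, of which 1 (*Nkg7*) passed the adjustment. The median log2 fold change was -2.53 for B cell genes, -2.23 for T cell genes and 0.18 for NK and cytotoxic genes, beside -0.095 for all genes tested. All 41 genes passed the filter of a mean of 1 FPKM over the 6 libraries. The T cell genes *Cd4*, *Cd8a*, *Cd5* and *Bcl11b* had LIP means under 1 FPKM. These 4 passed the filter only through their Ctrl level, so their place among the genes that fell is weaker support. In these bulk libraries, fewer lymphocytes among the sorted cells and less of each RNA per cell cannot be told apart.

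**Figure D1:**
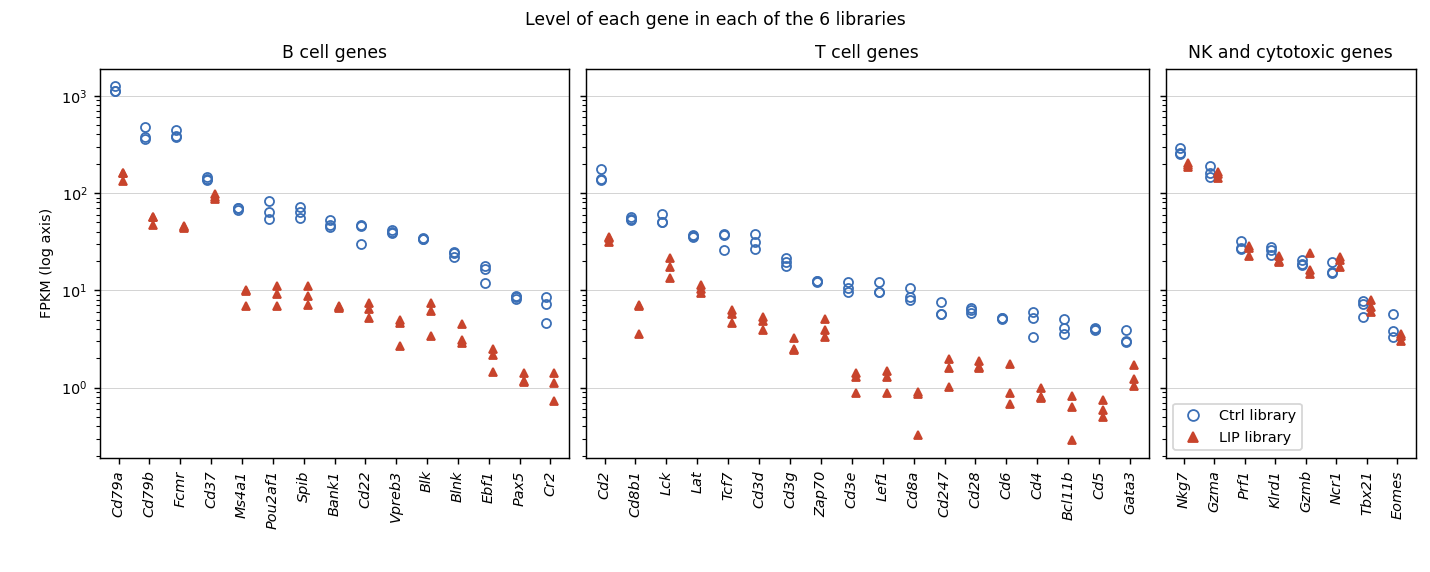
FPKM of each member in each library on a log axis, B cell genes on the left, T cell genes in the middle and NK and cytotoxic genes on the right, with Ctrl as open circles (n = 3) and LIP as filled triangles (n = 3). The triangles lie below the circles for all 15 B cell and all 18 T cell genes, with the smallest gap for *Cd37*. For the 8 NK and cytotoxic genes the symbols lie closer together. Among these, the triangles of *Nkg7* and *Klrd1* also lie below all their circles, and those of *Ncr1* overlap with its circles. FPKM is scaled by library total, without the TMM factors behind the CPM values and the test.

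The B cell receptor chains were among the most abundant RNAs of the Ctrl libraries. *Cd79a* (ENSMUSG00000003379, chr7:24897381-24902197), which carries the receptor's signal, had 1551, 1794 and 1589.5 CPM in Ctrl and 236, 282 and 279 CPM in LIP. The lowest Ctrl library was several times the highest LIP library, and the LIP libraries lay close to each other. The Ctrl mean (1645 ± 130.3 CPM, SD, n = 3) was 6.19 times the LIP mean (266 ± 25.6), a log2 fold change of -2.63 (SE 0.104, edgeR adjusted p = 5.92e-08). By mean FPKM, *Cd79a* ranked 46 among the 10440 genes in Ctrl and 328 in LIP. Its partner *Cd79b* had 509, 678 and 505 CPM in Ctrl and 81.2, 98.03 and 97.1 CPM in LIP. Ctrl replicate 2 was the highest library for both chains, and the groups did not overlap. *Cd79b* fell by 2.61 on the log2 scale (SE 0.144, edgeR adjusted p = 3.39e-07). The FPKM of *Cd79b* over that of *Cd79a* was 0.334, 0.385 and 0.323 in Ctrl and 0.3499, 0.354 and 0.354 in LIP, so the ratio of the chains overlapped between the groups while both chains fell.

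The surface receptors of B cells fell by similar sizes, with *Cd37* as the exception. *Fcmr*, the receptor for the Fc part of IgM, fell by 2.86 (SE 0.111, edgeR adjusted p = 5.74e-08), from 681 ± 76.4 to 93.7 ± 3.16 CPM (SD, n = 3). *Ms4a1*, which encodes the CD20 antigen, fell by 2.65 (SE 0.1497), the inhibitory receptor gene *Cd22* by 2.37 (SE 0.188) and the complement receptor gene *Cr2* by 2.33 (SE 0.285), with edgeR adjusted p of 3.95e-07, 3.21e-06 and 6.67e-05. *Cd22* and *Cr2* were lowest among Ctrl libraries in replicate 2, where *Cd79a*, *Cd79b* and *Ms4a1* were highest.

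*Cd37* (chr7:45233632-45239057) encodes a tetraspanin of B cells that other leukocytes also carry. It had 456, 507 and 476 CPM in Ctrl and 385, 367 and 412 CPM in LIP. The groups did not overlap, but the gap between them was narrow. Its log2 fold change was -0.31 (SE 0.0927, 95% interval -0.51 to -0.10, edgeR adjusted p = 0.0177). The call was lost without Ctrl replicate 3 (-0.31, adjusted p = 0.0536 by edgeR), without LIP replicate 1 (-0.30, adjusted p = 0.0563) and without LIP replicate 2 (-0.27, adjusted p = 0.0694), and also with no filter on low values (-0.27, adjusted p = 0.087). Reads of *Cd37* made up 9.21% ± 0.153 of the reads of the 15 B cell genes in Ctrl and 33.5% ± 1.76 in LIP (SD, n = 3). The other 14 B cell genes had a median of -2.56 and ran from -2.98 (*Vpreb3*) to -2.29 (*Blk*).

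All 4 transcription factor genes of the B cell group fell by nearly the same amount. *Pax5*, which commits precursors to the B lineage, had 74.6, 73.8 and 70.7 CPM in Ctrl and 12.2, 12.5 and 14.9 CPM in LIP. Both sets were tight and far apart, and the log2 fold change was -2.47 (SE 0.153, edgeR adjusted p = 6.98e-07). Exons of *Pax5* overlap those of *5730488B01Rik* on the opposite strand, and the use of strand in counting is not given in the sources used here, so reads from the overlap are uncertain. *Ebf1*, which acts with *Pax5*, had 153, 115 and 168 CPM in Ctrl and 17.1, 29.3 and 25.7 CPM in LIP (log2 fold change -2.59, SE 0.218, edgeR adjusted p = 4.54e-06). Replicate 2 was the lowest of the Ctrl libraries and LIP replicate 1 the lowest of all. *Spib*, an Ets family factor, had 199, 156 and 180.2 CPM in Ctrl and 24.3, 38.2 and 29.9 CPM in LIP (log2 fold change -2.53, SE 0.179, edgeR adjusted p = 1.50e-06). *Pou2af1*, a coactivator that binds octamer factors, had 155, 137 and 207 CPM in Ctrl and 33.8, 28.1 and 20.9 CPM in LIP (log2 fold change -2.59, SE 0.208, edgeR adjusted p = 3.38e-06). No factor overlapped between the groups, and the 4 fold changes lay between -2.59 and -2.47.

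The signalling and assembly genes of the B cell receptor also fell. The kinase gene *Blk* had 86.9, 89.1 and 90.96 CPM in Ctrl and 23.9, 11.02 and 19.7 CPM in LIP, with LIP replicate 2 below the other 2. It had the smallest fold change among B cell genes after *Cd37* (-2.29, SE 0.245, edgeR adjusted p = 2.67e-05). The scaffold gene *Bank1* fell by 2.53 (SE 0.106, edgeR adjusted p = 8.50e-08) and the adaptor gene *Blnk* by 2.47 (SE 0.183, edgeR adjusted p = 2.06e-06). *Vpreb3*, whose product associates with immunoglobulin chains in developing B cells, had 32.1, 33.4 and 34.5 CPM in Ctrl and 5.21, 4.71 and 2.77 CPM in LIP. The LIP libraries were all far lower, replicate 3 the lowest. Its fold change was the largest of the B cell genes (-2.98, SE 0.2704, 95% interval -3.57 to -2.38, edgeR adjusted p = 8.15e-06), though that interval overlapped those of all B cell genes but *Cd37*.

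**Figure D2:**
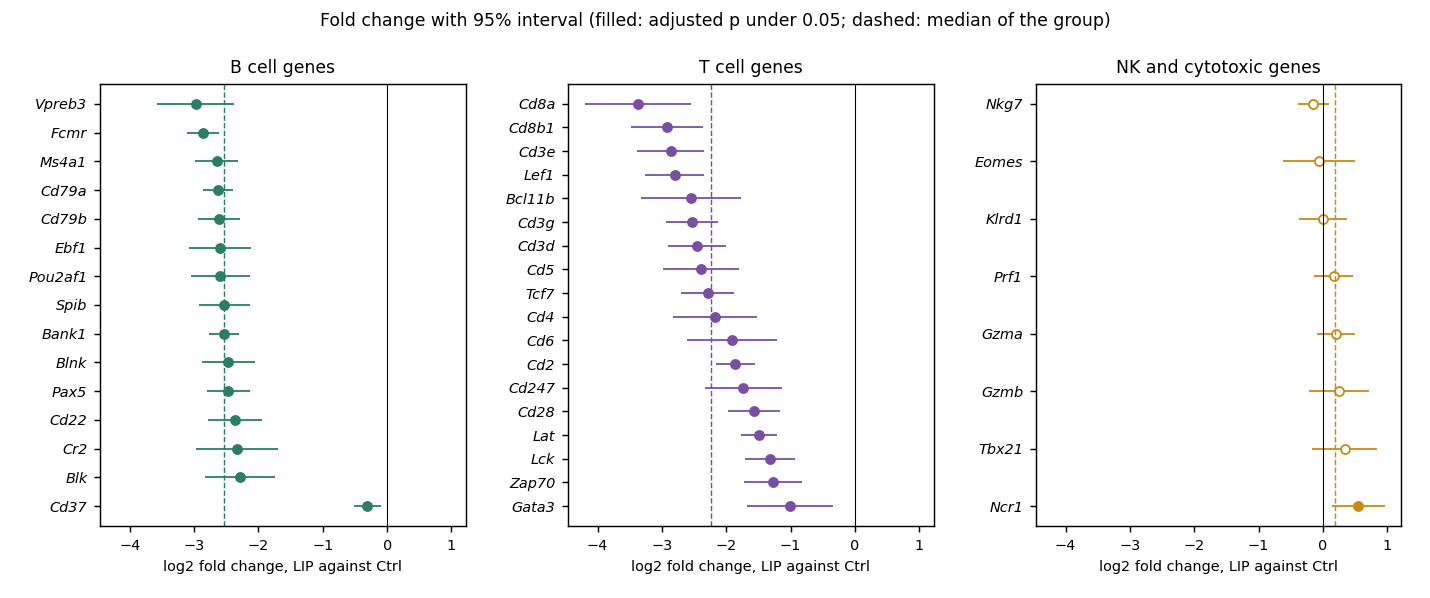
Log2 fold change of each member, LIP against Ctrl (n = 3 each), with its 95% interval from the edgeR fit, in order of size within each group. Filled points had an adjusted p under 0.05, and the dashed line is the median of the group. The B cell genes other than *Cd37* sit in a narrow band, the T cell genes spread from -3.38 to -1.01, and the NK and cytotoxic genes sit near 0. All values are drawn with TMM factors. With scaling on neutrophil genes, not drawn here, the NK and cytotoxic genes were below 0.

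The chains of the T cell receptor complex fell in LIP, with the smallest fold change for *Cd247*. *Cd3e* (ENSMUSG00000032093, chr9:44998740-45009622) had 41.2, 49.1 and 38.5 CPM in Ctrl and 4.38, 6.92 and 6.33 CPM in LIP. *Cd3d* (chr9:44981786-44987339) had 54.4, 67.6 and 46.7 CPM in Ctrl and 11.7, 10.5 and 8.62 CPM in LIP. *Cd3g*, which starts 1355 bases from *Cd3d* on the opposite strand, had 55.8, 68.7 and 61.9 CPM in Ctrl and 9.69, 12.6 and 9.74 CPM in LIP. In all 3 genes Ctrl replicate 2 was the highest library, and the LIP libraries lay well below every Ctrl library. The log2 fold changes were -2.87 for *Cd3e* (SE 0.235), -2.46 for *Cd3d* (SE 0.205) and -2.54 for *Cd3g* (SE 0.183), with edgeR adjusted p of 3.86e-06, 4.47e-06 and 1.74e-06. *Cd247*, the zeta chain, which also signals below Fc and natural killing receptors of NK cells, had 29.2, 39.5 and 29.5 CPM in Ctrl and 12.7, 10.3 and 6.57 CPM in LIP. Its groups were closer, LIP replicate 1 coming nearest to Ctrl, and the fold change was -1.74 (SE 0.269, edgeR adjusted p = 0.000352). The FPKM of *Cd247* over that of *Cd3e* was 0.543, 0.616 and 0.586 in Ctrl and 2.24, 1.14 and 0.794 in LIP, higher in every LIP library. The same ratio overlapped between the groups for *Cd3d* (2.97, 3.1 and 2.73 in Ctrl, 6.06, 3.42 and 3.07 in LIP). It also overlapped for *Cd3g* (1.69, 1.75 and 2.01 in Ctrl, 2.8, 2.29 and 1.92 in LIP).

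The CD8 chains had the largest fold changes of the T cell genes. *Cd8a* (ENSMUSG00000053977, chr6:71373427-71379169) had 29.5, 37.5 and 28.03 CPM in Ctrl and 1.43, 3.96 and 3.75 CPM in LIP. No Ctrl library came near the LIP libraries, of which replicate 1 was the lowest, and 72 reads in that library were the lowest count of any T cell gene. The log2 fold change was -3.38 (SE 0.372, 95% interval -4.20 to -2.55, edgeR adjusted p = 3.21e-05). *Cd8b1*, 35933 bases from *Cd8a* on the same strand, had 75.4, 83.7 and 77.8 CPM in Ctrl and 12.5, 12.5 and 6.27 CPM in LIP (log2 fold change -2.92, SE 0.251, edgeR adjusted p = 5.43e-06). LIP replicate 3 was the lowest for *Cd8b1* and not for *Cd8a*. *Cd4*, the coreceptor of helper T cells, had 19.8, 13.4 and 23.6 CPM in Ctrl and 4.896, 3.78 and 3.88 CPM in LIP. The groups stood apart, with replicate 2 the lowest of the Ctrl libraries, and the fold change was -2.18 (SE 0.297, edgeR adjusted p = 0.000145). The 95% intervals of *Cd4* (-2.83 to -1.52) and *Cd8a* overlapped. The FPKM of *Cd8a* over that of *Cd4* was 1.65, 3.12 and 1.32 in Ctrl and 0.324, 1.16 and 1.07 in LIP, with no overlap, but that of *Cd8b1* over *Cd4* overlapped (10.4, 17.1 and 8.98 in Ctrl, 6.96, 9.04 and 4.42 in LIP).

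The other 4 surface genes of T cells fell, with a median log2 fold change of -1.89. The scavenger receptor family genes *Cd5*, a damper of antigen receptor signals, and *Cd6* had fold changes of -2.39 (SE 0.267, edgeR adjusted p = 3.49e-05) and -1.92 (SE 0.315, edgeR adjusted p = 0.000527). *Cd6* varied among the LIP libraries, with 8.46, 16.6 and 6.46 CPM against 38.3, 40.5 and 40.3 CPM in Ctrl, replicate 2 being the highest of the LIP libraries. *Cd2*, an adhesion receptor of lymphocytes that is listed here with the T cell genes, fell by 1.86 (SE 0.134, edgeR adjusted p = 1.75e-06). It had the highest FPKM of the T cell genes in both groups (151 and 33.6 FPKM). *Cd28*, the costimulatory receptor, fell by 1.57 (SE 0.179, edgeR adjusted p = 4.14e-05).

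The kinases and the adaptor below the T cell receptor fell less than its CD3 chains. *Lck*, the kinase bound to the coreceptors, went from 154 ± 18.7 to 61.3 ± 14.1 CPM (SD, n = 3; log2 fold change -1.32, SE 0.174, edgeR adjusted p = 0.000111). *Zap70*, the kinase that docks on the phosphorylated chains, went from 35.8 ± 1.17 to 14.8 ± 3.29 CPM (-1.27, SE 0.206, edgeR adjusted p = 0.000468), and *Lat*, the adaptor it phosphorylates, from 97.2 ± 3.397 to 34.5 ± 3.01 CPM (-1.50, SE 0.127, edgeR adjusted p = 4.86e-06). The 95% intervals of *Lck* (-1.71 to -0.94), *Zap70* (-1.73 to -0.82) and *Lat* (-1.78 to -1.21) lay above those of *Cd3e* (-3.39 to -2.35), *Cd3d* (-2.91 to -1.9999) and *Cd3g* (-2.94 to -2.13). As FPKM ratios within a library, *Lck* over *Cd3e* was 4.78, 4.97 and 5.23 in Ctrl and 24.3, 12.5 and 10.4 in LIP, and *Zap70* over *Cd3e* was 1.14, 1.02 and 1.29 and 5.81, 2.36 and 3.04. Both ratios were higher in every LIP library than in any Ctrl library, and LIP replicate 1, the library with the lowest *Cd3e* level, was the highest for both.

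Among T cell transcription factors, *Lef1*, *Bcl11b* and *Tcf7* fell more than *Gata3*. *Lef1*, which with *Tcf7* answers Wnt signals in naive T cells, had 102, 83.6 and 82.5 CPM in Ctrl and 9.29, 15.5 and 13.7 CPM in LIP (log2 fold change -2.80, SE 0.207, edgeR adjusted p = 2.00e-06). Its exons overlap those of *Lef1os1* on the opposite strand, which leaves reads from the overlap uncertain. *Tcf7* had 108, 77.1 and 108 CPM in Ctrl and 22.7, 20.7 and 16.6 CPM in LIP (log2 fold change -2.29, SE 0.184, edgeR adjusted p = 3.42e-06). Neither gene overlapped between the groups. *Bcl11b*, which keeps T cells in their lineage, had 38.9, 32.9 and 27.9 CPM in Ctrl and 2.85, 8.04 and 6.14 CPM in LIP, LIP replicate 1 being the lowest (log2 fold change -2.55, SE 0.3497, edgeR adjusted p = 0.000151). *Gata3*, a factor of helper T cells and other lymphocytes, had 11.4, 15.5 and 11.4 CPM in Ctrl and 5.89, 4.98 and 8.22 CPM in LIP. The groups did not overlap, and the fold change was -1.01 (SE 0.3001, 95% interval -1.67 to -0.34, edgeR adjusted p = 0.0164), the smallest of the T cell genes. The call was lost without Ctrl replicate 2 (-0.82, adjusted p = 0.0755 by edgeR), without LIP replicate 2 (-0.86, adjusted p = 0.0532) and with no filter on low values (-0.98, adjusted p = 0.0539). By mean level, the LIP values of *Cd4*, *Cd8a*, *Cd5* and *Bcl11b* were under 1 FPKM.

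The 4 effector genes of cytotoxic cells did not pass the test in either direction. *Nkg7* (chr7:43437073-43438249), which encodes a membrane protein of cytotoxic granules, had 223, 262 and 225 CPM in Ctrl and 216, 224 and 202 CPM in LIP. The groups overlapped at this scale, and the log2 fold change was -0.15 (SE 0.107, 95% interval -0.39 to 0.090, edgeR adjusted p = 0.265). With library totals in place of TMM factors it was -0.47 (edgeR adjusted p = 0.00315), and limma on log2(FPKM + 1) gave -0.45 (adjusted p = 0.00168).

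*Prf1*, which encodes perforin, had 79.8, 69.9 and 66.9 CPM in Ctrl and 69.8, 84.1 and 89.3 CPM in LIP. *Gzma*, a granzyme gene, had 139, 189.9 and 156 CPM in Ctrl and 190.4, 197 and 170.2 CPM in LIP, and *Gzmb*, another, 25.8, 25.6 and 28.4 CPM and 25.6, 41.7 and 27.5 CPM. The *Gzma* libraries overlapped only through Ctrl replicate 2, and for *Gzmb* a single LIP library, replicate 2, stood above the rest. The fold changes of *Prf1* (0.17, SE 0.138, edgeR adjusted p = 0.326), *Gzma* (0.20, SE 0.133, edgeR adjusted p = 0.22) and *Gzmb* (0.25, SE 0.212, edgeR adjusted p = 0.342) were positive with TMM factors and turned negative with library totals (-0.15, -0.12 and -0.072). Without Ctrl replicate 2, *Gzma* passed the test (0.35, edgeR adjusted p = 0.0223).

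*Ncr1* (ENSMUSG00000062524, chr7:4337724-4345164), which encodes the natural killing receptor NKp46, was the one NK gene that passed. It had 22.3, 29.7 and 23.2 CPM in Ctrl and 32.3, 37.4 and 40.5 CPM in LIP. The lowest LIP value was above the highest Ctrl value, as for 30.3% of all genes tested, and the gap between the nearest libraries was small. With TMM factors it rose by 0.55 on the log2 scale (SE 0.185, 95% interval 0.14 to 0.96, edgeR adjusted p = 0.0276), and with scaling on neutrophil genes the value was -1.24. The call was lost without Ctrl replicate 1 (0.48), Ctrl replicate 3 (0.50), LIP replicate 2 (0.54) or LIP replicate 3 (0.48), with edgeR adjusted p of 0.0859, 0.0908, 0.0671 and 0.0863, and also with library totals (0.23, adjusted p = 0.289), with limma on log2(FPKM + 1) (0.24, adjusted p = 0.177), with no filter (0.58, adjusted p = 0.0599) and with a filter of 5 FPKM (0.39, adjusted p = 0.0715). *Klrd1*, which encodes CD94, the partner chain of NKG2 receptors, went from 32.1 ± 3.52 to 32.002 ± 2.83 CPM (SD, n = 3; log2 fold change -0.0053, SE 0.168, 95% interval -0.38 to 0.37, edgeR adjusted p = 0.981).

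The factors of the cytotoxic program did not pass either. *Eomes* had 14.997, 13.5 and 23.2 CPM in Ctrl and 15.1, 16.8 and 17.7 CPM in LIP. All 3 LIP libraries lay inside the span of the Ctrl libraries, which Ctrl replicate 3 widened (-0.059, SE 0.252, 95% interval -0.62 to 0.50, edgeR adjusted p = 0.856). *Tbx21*, which encodes T-bet, had 17.1, 19.1 and 13.004 CPM in Ctrl and 24.2, 20.3 and 17.8 CPM in LIP, with Ctrl replicate 2 inside the LIP range (0.34, SE 0.228, 95% interval -0.16 to 0.85, edgeR adjusted p = 0.227). The intervals of both factors leave room for a difference of either sign, so equal levels are not shown.

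The falls of most B cell and T cell genes lay beyond the intervals of the NK and cytotoxic genes. The lowest bound of any NK or cytotoxic gene's 95% interval was -0.62 (*Eomes*). The intervals of 14 of 15 B cell genes lay wholly below that bound, *Cd37* being the other, and so did those of 17 of 18 T cell genes, *Gata3* being the other. A fall of more than 2 on the log2 scale was seen in 14 of 15 B cell genes and 10 of 18 T cell genes. The lowest count in any library was 131 for B cell genes, 72 for T cell genes and 758 for NK and cytotoxic genes.

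As a share of all reads, the 15 B cell genes took 0.582% ± 0.01601 in Ctrl and 0.104% ± 0.00478 in LIP (SD, n = 3). The 18 T cell genes took 0.133% ± 0.006496 and 0.0274% ± 0.001801, and the 8 NK and cytotoxic genes 0.0657% ± 0.00475 and 0.0553% ± 0.00236. Reads of B cell genes over reads of NK and cytotoxic genes in the same library stood at 9.17, 8.44 and 9.03 in Ctrl and at 1.83, 1.79 and 2.01 in LIP, and reads of T cell genes over them 2.103, 1.98 and 2.02 and 0.523, 0.494 and 0.472. These ratios need no scaling between libraries, and both were lower in every LIP library than in any Ctrl library. Reads of B cell genes over T cell genes stood at 4.36, 4.27 and 4.46 in Ctrl and at 3.49, 3.63 and 4.27 in LIP. These overlapped only narrowly, through Ctrl replicate 2 (4.2663) and LIP replicate 3 (4.2703). The B cell sum includes *Cd37*, whose share of it was 9.21% in Ctrl and 33.5% in LIP. Summed CPM of the other 14 B cell genes in LIP was 15.3, 16.9 and 16.6% of their Ctrl mean. For the 18 T cell genes, none left out, it was 26.6, 26.9 and 23.5%, and for all 15 B cell genes 21.3, 22.4 and 23.0%. With no gene left out on either side, the highest B cell and the lowest T cell value thus nearly met. The wider gap without *Cd37* comes from leaving out a gene with a small fall on the B cell side only. As FPKM ratios of single genes, *Cd79a* over *Nkg7* was 4.36, 4.29 and 4.43 in Ctrl and 0.686, 0.791 and 0.866 in LIP. *Cd3e* over *Ncr1* was 0.698, 0.624 and 0.627 and 0.0505, 0.0694 and 0.0588. That pair sets a large T cell fall (-2.87) against the one NK gene called higher (0.55). It overstates the fall of other T cell genes, such as *Lck* (-1.32), *Zap70* (-1.27) and *Gata3* (-1.01). The ratios are given as descriptions, with no test.

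**Figure D3:**
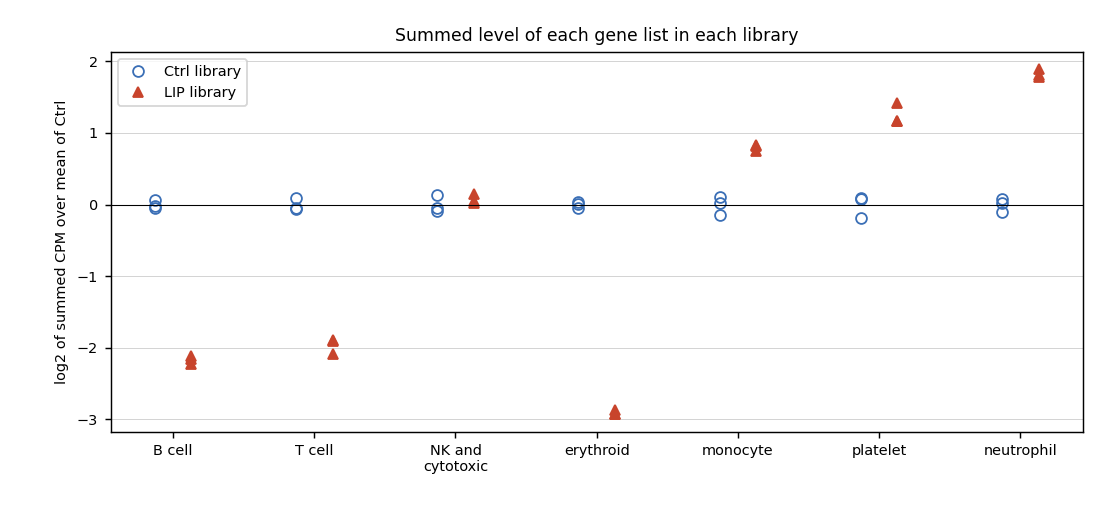
Summed CPM of each gene list in each library on a log2 scale, relative to the mean of the Ctrl libraries, with Ctrl as open circles and LIP as filled triangles (n = 3 each). All values are drawn with TMM factors. In LIP the 15 B cell and 18 T cell genes lie below every Ctrl library and the erythroid genes lie low. The NK and cytotoxic genes lie near 0, and the monocyte, platelet and neutrophil genes lie high in LIP. Scaling on neutrophil genes is not drawn, and with it the NK and cytotoxic, platelet and most monocyte genes were lower in LIP.

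Within the B cell genes, FPKM ratios to *Cd79a* were formed for 5 chosen genes, and 4 of the 5 overlapped between the groups. In addition to *Cd79b*, *Ms4a1* over *Cd79a* was 0.0594, 0.0567 and 0.0623 in Ctrl and 0.0512, 0.0619 and 0.0613 in LIP, and *Pax5* over *Cd79a* 0.00791, 0.00677 and 0.00732 and 0.00848, 0.007302 and 0.00878. Both overlapped between the groups. *Fcmr* over *Cd79a* was 0.347, 0.36 and 0.333 in Ctrl and 0.343, 0.28 and 0.272 in LIP, and overlapped only through LIP replicate 1. *Cd37* over *Cd79a* was 0.122, 0.117 and 0.124 in Ctrl and 0.675, 0.539 and 0.611 in LIP and did not overlap. Within the NK and cytotoxic genes, *Prf1* over *Nkg7*, *Gzma* over *Gzmb* and *Tbx21* over *Eomes* overlapped. *Gzma* over *Nkg7* (0.565, 0.658 and 0.628 in Ctrl, 0.801, 0.799 and 0.766 in LIP) and *Ncr1* over *Klrd1* (0.651, 0.696 and 0.595, 0.763, 1.005 and 1.13) were higher in every LIP library.

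The choice of scaling moved all 3 medians together. With library totals the medians were -2.86 for B cell, -2.56 for T cell and -0.14 for NK and cytotoxic genes, and with factors from the 20 neutrophil genes they were -4.32, -4.03 and -1.60. The median of all genes tested moved with them, to -0.42 and -1.89. Scaled on neutrophil genes, all 8 NK and cytotoxic genes passed as lower, together with 9194 of the 10440 genes tested. The order of the 3 groups was the same under each of the scalings tried.

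**Figure D4:**
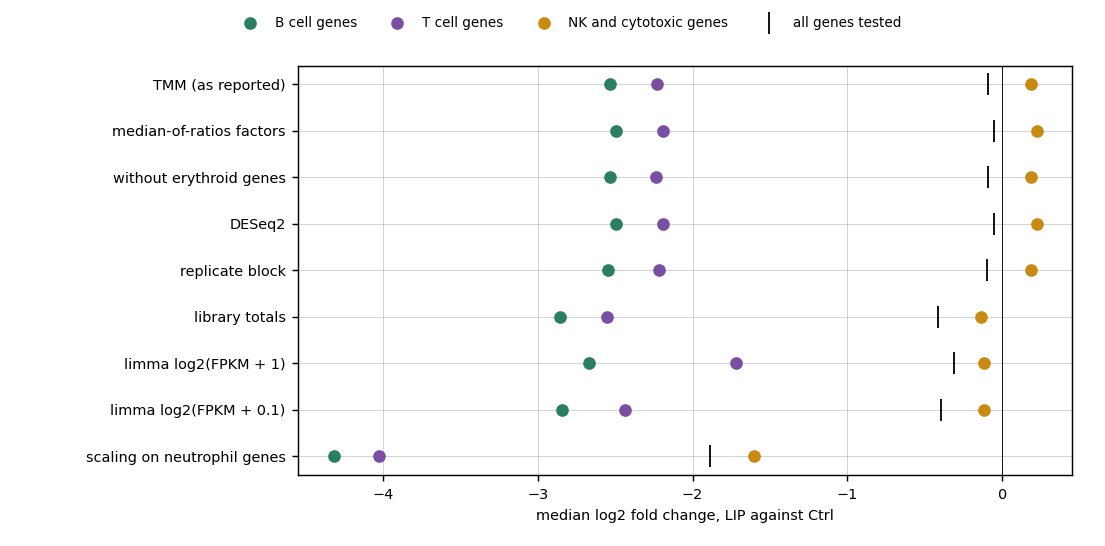
Median log2 fold change of the 15 B cell, 18 T cell and 8 NK and cytotoxic genes (points) and of all genes tested (bars), LIP against Ctrl, under 9 settings of scaling and model. B cell genes lie lowest, T cell genes next and NK and cytotoxic genes highest in each setting, and the NK median is above 0 with TMM or median-of-ratios factors and below 0 with library totals, limma or neutrophil scaling.

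Further genes of each lineage, listed apart from the members, went mostly the same way but spread more widely. Over all genes tested, 27.2% fell and 26.5% rose. Of 39 further B cell genes tested, 28 fell and 6 rose, with a median of -1.93. *Cd74*, the invariant chain of class II antigen presentation, was the most abundant, with 11136, 12588 and 11588 CPM in Ctrl and 2522, 2375 and 2412 CPM in LIP (log2 fold change -2.27, SE 0.0678, edgeR adjusted p = 1.36e-08), and all its LIP libraries lay far below Ctrl. The range ran from *Fcer2a*, the low-affinity IgE receptor (-2.89, SE 0.158, edgeR adjusted p = 3.27e-07), to *Lyn*, a Src family kinase of B cells and myeloid cells (1.08, SE 0.101, edgeR adjusted p = 1.03e-05). Of 36 further T cell genes tested, out of 40 listed, 26 fell and 6 rose, with a median of -1.25. *Ptprc*, which encodes CD45 and is carried by all leukocytes, was the most abundant and rose (1.18, SE 0.137, edgeR adjusted p = 4.68e-05). The extremes were *Sit1*, a T cell signalling regulator (-3.78, SE 0.372, edgeR adjusted p = 1.43e-05), and *Lcp2*, the adaptor SLP-76 of T cells and myeloid cells (1.36, SE 0.1097, edgeR adjusted p = 3.54e-06). *Sit1* averaged 8.39 FPKM in Ctrl and 0.486 FPKM in LIP, so it passed the filter only through its Ctrl level.

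Of 30 further NK and cytotoxic genes tested, 2 fell, 10 rose and 18 did not pass, with a median of 0.36. Over all genes tested, 27.2% fell and 26.5% rose. *Tyrobp*, the DAP12 adaptor that myeloid cells share, was the most abundant and had 841, 972 and 924 CPM in Ctrl and 2537, 2682 and 2608 CPM in LIP. Every LIP library was higher, and the fold change was 1.52 (SE 0.08002, edgeR adjusted p = 2.83e-07). The lowest value was that of *Txk*, a kinase of T and NK cells that is on both lists (-0.91, SE 0.377, edgeR adjusted p = 0.0631), and the highest that of *Cd244a*, a receptor of NK cells and some myeloid cells (2.02, SE 0.115, edgeR adjusted p = 4.17e-07). *Txk* passed by DESeq2 (-0.87, adjusted p = 0.0283), by limma on log2(FPKM + 1) (-0.74, adjusted p = 0.0177), with library totals (-1.23, adjusted p = 0.0202), with the replicate number as a block (-1.06, adjusted p = 0.0234) and without LIP replicate 3 (-1.24, adjusted p = 0.0275). Under scaling on neutrophil genes, 39 of 39 further B cell, 35 of 36 further T cell and 26 of 30 further NK and cytotoxic genes were lower and 0 were higher. Over all 10440 genes tested, 9194 were lower and 70 higher at that scaling. The median of the NK list turned to -1.42, and *Lyn* (-0.71), *Ptprc* (-0.61), *Lcp2* (-0.43) and *Tyrobp* (-0.27) changed sign. With library totals, 7 of the 30 further NK and cytotoxic genes were lower and 7 higher, where 4146 of all 10440 genes were lower and 1919 higher. Several genes on these lists are also used by myeloid cells, and the part of the neutrophil and monocyte levels in their values was not tested.

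**Figure D5:**
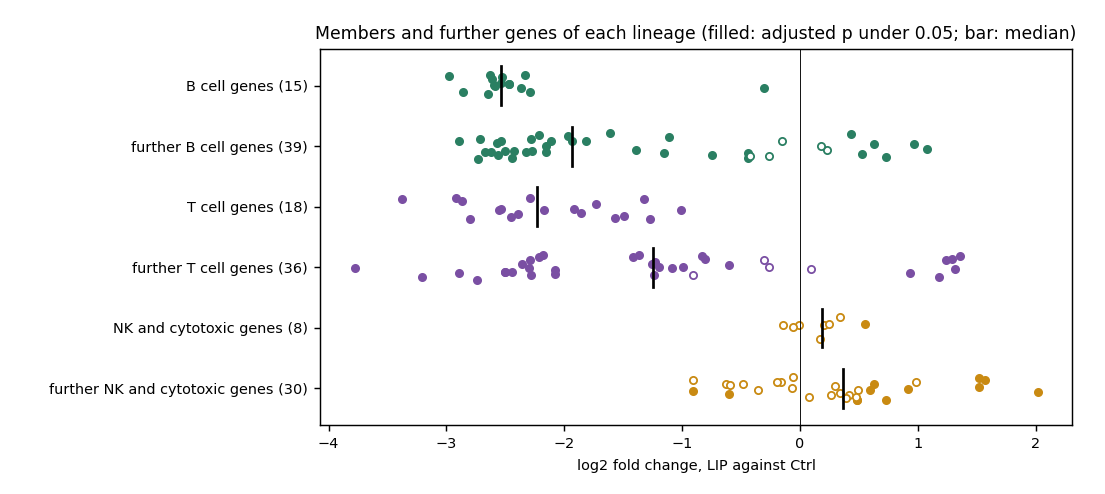
Log2 fold change of each tested gene, LIP against Ctrl (n = 3 each), for the members of each group and for further genes of the same lineage, with the number of genes in parentheses, filled points for an adjusted p under 0.05 by edgeR and a bar at the median. Members of the B cell and T cell groups all lie below 0, the further lists hold genes on both sides of 0, and both NK lists have medians just above 0. All values are drawn with TMM factors. With scaling on neutrophil genes, not drawn here, both NK medians were below 0.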

How the data were processed

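PB neutrophils were measured in 3 Ctrl and 3 LIP libraries (paired-end, 150 bases). The authors deposited raw counts per gene, not normalized, and FPKM values, which are the counts scaled by gene length and library total. The submitters' processing notes name cutadapt 1.9 and FastQC, and the aligner, the counter and the use of strand are not given in the sources used here. The table gives GRCm38 coordinates, which matched GENCODE M21 for all 41 members. Groups and replicate numbers came from the sample labels.

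Genes whose FPKM averaged 1 or more across the 6 libraries (10440 of 29097) were tested on the deposited counts with edgeR 4.0.16 (R 4.3.3), by its quasi-likelihood test with TMM factors, without a replicate block, and with Benjamini-Hochberg adjustment over all of them, at 0.05. SE was the fold change over the square root of F. The fit was tested on simulated data with far fewer changed genes and less spread between replicates than these data. That run therefore does not test the choice of scaling here. For 50 symbols present on more than 1 row, the row with the larger average FPKM was kept. Alternatives were DESeq2 1.42.0, limma 3.58.1 on log2(FPKM + 1) and log2(FPKM + 0.1), other factors and filters, a replicate block, and fits without each library in turn. Totals of 52186555 to 57262379 reads gave a common biological coefficient of variation of 0.265. No pair of libraries within a group agreed within sampling noise (chi-square per gene from 52.2 to 126.2). Intervals are 95%.

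The members and the further gene lists were chosen with earlier results of these data known. The named genes were all 41 members and, for each further list, its most abundant gene and those with the highest and lowest fold change.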

Additional observations from a re-analysis of the deposited data

How the results depend on the processing

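The count of B cell genes lower in LIP was 15, or 14 where *Cd37* lost its call, and that of T cell genes 18, or 17 where *Gata3* lost its call, except that a filter of a mean of 5 FPKM left 13 B cell and 10 T cell genes to test, all lower. NK and cytotoxic genes lower in LIP, 0 in the reported fit, were 1 with library totals, with limma on either pseudocount and with the 5 FPKM filter, *Nkg7* in each case, and 8 with scaling on the 20 neutrophil genes. The B cell median was -2.49 with median-of-ratios factors, -2.86 with library totals, -4.32 with neutrophil scaling, -2.49 with DESeq2, -2.67 and -2.85 with limma at pseudocounts of 1 and 0.1, -2.50 with no filter, -2.49 with edgeR's own filter, -2.76 with the 5 FPKM filter and -2.61 to -2.47 with 1 library left out. The T cell median was -2.56, -4.03, -1.72, -2.44 and -2.54 with library totals, neutrophil scaling, limma at 1 and 0.1 and the 5 FPKM filter, and -2.36 to -2.10 with 1 library left out. The NK median, in the same order, was -0.14, -1.60, -0.12, -0.12 and 0.039, and 0.078 to 0.20 with 1 library left out. Of the genes called, 50.6% were lower in the reported fit, 68.4% with library totals, 99.2% with neutrophil scaling (70 higher, 9194 lower) and 67.9% and 67.7% with limma.

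Single NK genes changed sign. *Klrd1* was 0.032 with median-of-ratios factors, 0.032 with DESeq2, 0.024 and 0.033 with no filter and edgeR's filter, and -0.080 to 0.092 with 1 library left out. With library totals, neutrophil scaling and limma at 1 and 0.1, *Prf1* was -0.15, -1.62, -0.14 and -0.14 (-0.00011 with the 5 FPKM filter), *Gzma* -0.12, -1.59, -0.095 and -0.096, and *Gzmb* -0.072, -1.54, -0.085 and -0.091 (-0.0016 to 0.38 with 1 library left out, the lowest without LIP replicate 2). With neutrophil scaling *Ncr1* was -1.24 and *Tbx21* -1.45, and *Eomes* was -0.19 to 0.21 with 1 library left out, above 0 without Ctrl replicate 3 or LIP replicate 1. The cause of these changes was not tested. The replicate numbers are shared by label alone, since same-numbered pools held different mice, and their deviations correlated at 0.0135, 0.0522 and 0.0302. With the replicate number as a block, 2724 genes were higher and 2822 lower against 2766 and 2835, the medians were -2.55, -2.21 and 0.19, and the block changed no call of a member.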

Other observations

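Genes of antibody-secreting cells, which end the B cell path, depended on the scaling. Of 6 tested plasma cell genes, 3 fell, 1 rose and 2 did not pass with TMM factors. With library totals or the replicate block 4 fell and 1 rose, and with scaling on neutrophil genes 6 fell. Over all genes tested, 27.2% fell and 26.5% rose with TMM factors, and 9194 of 10440 fell with neutrophil scaling. *Sdc1*, the surface proteoglycan CD138, had the lowest fold change (-3.42, SE 0.464, edgeR adjusted p = 0.00014), with 12.01, 11.2 and 19.7 CPM in Ctrl and 0.677, 2.12 and 1.21 CPM in LIP. *Xbp1*, a factor of the secretory pathway that many other cells express, had the highest (1.33, SE 0.0973, edgeR adjusted p = 1.87e-06), with 152, 169 and 161 CPM in Ctrl and 407, 420.2 and 387 CPM in LIP. Both genes stood apart between the groups, in opposite directions with TMM factors, though *Xbp1* was at -0.46 with scaling on neutrophil genes.

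Among 5 tested dendritic cell genes, 2 fell, 2 rose and 1 did not pass with TMM factors, and 4 fell and 0 rose with scaling on neutrophil genes. For this and the next 2 lists, the shares over all genes tested were 27.2% lower and 26.5% higher with TMM factors. With neutrophil scaling, 9194 of all 10440 genes were lower. The dendritic cell genes that fell were *Tcf4* and *Irf8* (-1.15, edgeR adjusted p = 1.07e-05), and *Irf8* is also on the list of further B cell genes. *Tcf4*, a factor of plasmacytoid dendritic cells that B cells also express, had 105, 95.9 and 106 CPM in Ctrl and 32.1, 35.2 and 31.4 CPM in LIP (log2 fold change -1.64, SE 0.124, edgeR adjusted p = 2.38e-06). *Cd209a*, a lectin of dendritic cells and some monocytes, had 5.497, 9.2997 and 4.39 CPM in Ctrl and 15.4, 21.8 and 16.9 CPM in LIP (log2 fold change 1.49, SE 0.323, edgeR adjusted p = 0.00298). Neither *Tcf4* nor *Cd209a* overlapped between the groups, and with scaling on neutrophil genes *Cd209a* was at -0.29 (edgeR adjusted p = 0.428). Of 7 tested eosinophil and basophil genes, 1 fell, 2 rose and 4 did not pass with TMM factors, where 26.5% of all genes rose, and 4 fell and 0 rose with scaling on neutrophil genes. Of 4 tested neutrophil precursor genes, 1 rose and 3 did not pass with TMM factors, and 4 fell with scaling on neutrophil genes.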
